A study of Mus musculus with 20 samples.

Results

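Connexins are the proteins of gap junctions, the channels that join the cytoplasm of neighboring cells. Connexin subunits assemble into a hemichannel in one cell, and a hemichannel docks with that of the next cell to form a pore for ions, second messengers and small metabolites. In the cochlea, *Gjb2* and *Gjb6* encode the connexins that couple supporting cells and fibrocytes, a network held to carry potassium away from hair cells, and their hemichannels release ATP in the immature epithelium before hearing begins. Mutations of human *GJB2* are a leading cause of inherited deafness.

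The 7 connexin genes described here were taken from a list of gene names (*Gjb2*, *Gjb6*, *Gja1*, *Gjb1*, *Gjc3*, *Gjc1* and *Gjd2*) among 24411 genes with values. They were measured in poly(A) RNA from the sensory epithelium and spiral ganglion of the apical coil of the mouse cochlea, in *Bai1*tm2b/+ mice, which served as controls, and in *Bai1*tm2b/tm2b littermates on a C57BL/6N background. The tm2b allele, of which every control animal also carried 1 copy, lacks exons 3 and 4 of *Adgrb1*, the gene of the adhesion receptor BAI1, and holds a lacZ cassette, so that the long isoform is lost while a short isoform can remain. The allele was made by Cre conversion in embryos and is not restricted to a cell type. Each library was a pool of 4 mice by the methods, or of 3 to 4 by other legends of the study, which used both sexes without giving those of a pool, and P22 (after hearing onset) had 3 libraries of each genotype. P7 (before hearing onset) had 7 of each, of which libraries 1 to 4 were deposited in another unit than libraries 5 to 7.

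The estimated counts of the 6 P22 libraries summed to between 35725991 and 40350413, and those of the 6 P7 libraries in counts to between 31108542 and 58807162. The other 8 P7 libraries held values that behaved as TPM rounded to whole numbers (sums of 999644 to 999777), so their depth is unknown. The unit differed within P7, and the 3 sets of libraries were therefore tested apart. The study describes separate P7 batches, which the labels do not tie to library numbers. Below, CPM is the count set relative to the size of its library, after the 12 libraries in counts were scaled together by TMM (which assumes that most genes do not differ), and a gene was called where the adjusted p was under 0.05, the log2 difference was above 0.5 in size and its standard error was under 0.5. At P22 *Adgrb1* was at 154.3, 152.3 and 166.9 CPM in controls and at 103, 100.2 and 105.3 CPM in *Bai1*tm2b/tm2b libraries. It was at 32.07, 56.45 and 36.02 against 25.87, 21.57 and 31.2 CPM in the P7 libraries in counts, again with no overlap. Groups did not overlap for 33.7% of all genes at P22 and for 10.7% in the P7 counts. The rounded TPM of this gene were 10, 12, 8 and 7 in the libraries labelled *Bai1*tm2b/+ and 9, 9, 10 and 12 in those labelled *Bai1*tm2b/tm2b, so the values of the whole gene did not separate these labels. Within the values used here, every direction given for the rounded TPM set rests on its labels alone. The study reported lost reads over exons of the long isoform in homozygous P7 libraries, which values of the whole gene cannot show. No marker of hair cells (10 genes), supporting cells (12), neurons (10) or myelinating cells (10) was at 0 in any library, and hair cell markers summed at P22 to 305.6 to 329.8 CPM in controls and to 411.7 to 514 CPM in *Bai1*tm2b/tm2b libraries. Markers of the stria vascularis (6 genes, up to 1 at 0 in a library) stood apart in P22 control library 2, at 407.3 CPM against 18.69 to 24.7 CPM in the other 5. Without that library the P22 log2 differences given below were -0.53 for *Gjd2*, 0.35 for *Gjb6*, 0.31 for *Gjb2* and 0.59 for *Gja1*. Nothing in the sources ties a library number to separate litters, so p-values measure the spread between pools.

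*Gjb2* (connexin 26, ENSMUSG00000046352.7) lies at chr14:57098600-57104702 and *Gjb6* (connexin 30, ENSMUSG00000040055.9) at chr14:57123303-57133611, both on the minus strand of GRCm38 (mm10). The genes are neighbors, 18600 bases apart with 1 annotated gene, Gm4491, between them. *Gjd2* (connexin 36, the main connexin of electrical synapses between neurons, ENSMUSG00000068615.4) lies at chr2:114009601-114013619 on the minus strand. The 250 bases before the RefSeq start of these 3 genes (GRCm38.p6) are shown because *Gjb2* and *Gjb6* diverged between the P7 and P22 libraries despite their shared locus, and because *Gjd2* was the member called between genotypes. They read 5′ to 3′ on the gene's strand, and capitals mark the motif GGGCGG, the core of the GC box, on either strand.
Gjb2, chr14:57104703-57104952 (minus strand): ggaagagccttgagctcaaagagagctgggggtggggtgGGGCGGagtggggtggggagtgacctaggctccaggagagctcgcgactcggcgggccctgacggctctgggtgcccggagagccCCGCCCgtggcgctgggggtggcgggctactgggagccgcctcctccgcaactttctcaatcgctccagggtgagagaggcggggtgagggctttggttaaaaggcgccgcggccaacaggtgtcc
Gjb6, chr14:57133612-57133861 (minus strand): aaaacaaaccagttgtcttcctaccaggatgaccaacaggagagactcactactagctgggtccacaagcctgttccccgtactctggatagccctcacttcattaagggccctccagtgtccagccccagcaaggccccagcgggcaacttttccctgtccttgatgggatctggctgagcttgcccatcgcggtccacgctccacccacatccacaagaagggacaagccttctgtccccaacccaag
Gjd2, chr2:114013620-114013869 (minus strand): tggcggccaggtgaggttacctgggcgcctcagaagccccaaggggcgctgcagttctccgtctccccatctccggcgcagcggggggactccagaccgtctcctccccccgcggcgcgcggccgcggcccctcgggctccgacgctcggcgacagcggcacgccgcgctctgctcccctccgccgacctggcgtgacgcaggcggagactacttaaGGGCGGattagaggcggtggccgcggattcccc
GC content was 69.2% in the *Gjb2* window, 56.8% in that of *Gjb6* and 74% in that of *Gjd2*. GGGCGG was found 2 times before *Gjb2*, 1 time before *Gjd2* and not before *Gjb6*, and 32.7% of 32851 RefSeq promoter windows held it. TATAAA (held by 12.4% of windows), CCAAT (33.8%), TGAGTCA (4.46%) and ACAAAG (16.5%), each searched on both strands, were in none of these 3 windows. These are matches of letters and not sites of binding.

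The other members are spread over the genome. *Gja1* (connexin 43, the most widespread connexin, found in astrocytes, fibroblasts and bone cells, ENSMUSG00000050953.10) lies at chr10:56377330-56402513 on the plus strand. *Gjb1* (connexin 32, a connexin of myelinating Schwann cells and oligodendrocytes, ENSMUSG00000047797.14) lies at chrX:101376378-101385629 on the plus strand. *Gjc3* (connexin 29, of Schwann cells and other myelinating glia, ENSMUSG00000056966.7) lies at chr5:137953461-137963098 on the minus strand. *Gjc1* (connexin 45, of vascular smooth muscle and some neurons, ENSMUSG00000034520.14) lies at chr11:102799579-102819700 on the minus strand. Of the 7 genes, only *Gjd2* shared exon bases with another gene, 57 bases (1.98%) with A530058N18Rik on the opposite strand. The use of strand in the counting was not given in the sources used here.

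All 7 genes passed the filter on low values in each comparison, and their estimated counts ranged from 225 for *Gjc1* to 20513 for *Gjb2* at P22. Per kilobase of merged exon, *Gjb2* was the most abundant connexin at P22 with 210 CPM per kb (range over 6 libraries 175 to 234), followed by *Gjb6* with 132 (111 to 151). *Gjc3* (46, range 43.4 to 53.6) and *Gjb1* (45, range 41.1 to 48.7) came next and overlapped each other. *Gjd2* followed with 16.4 (12.6 to 20.5), *Gja1* with 6.92 (5.17 to 10.3) and *Gjc1* with 1.47 CPM per kb (1.39 to 1.64), and none of these 3 overlapped its neighbor among the members. In the P7 libraries in counts *Gjb2* led again with 252 CPM per kb (212 to 288), but *Gjb6* (57.1, range 47.8 to 67.3) overlapped *Gjc3* (49.2, range 21.6 to 71.7). Below them *Gja1* (10.5, range 9.19 to 14.2), *Gjb1* (7.19, range 3.53 to 10.8), *Gjd2* (5.58, range 2.86 to 10.6) and *Gjc1* (3.48, range 2.95 to 3.86) each overlapped the next.

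The cochlear pair thus made up most of the connexin level per length. *Gjb2* and *Gjb6* together took 69.1 to 74% of the summed level of the 20 connexin genes at P22 and 69 to 86.5% in the P7 libraries in counts. Its share was 52 to 60.7% of the rounded TPM, where the authors' own transcript lengths apply. There *Gjb2* was at a mean of 427 TPM, *Gjc3* at 252, *Gjb6* at 143, *Gja1* at 79.9, *Gjb1* at 30.2, *Gjd2* at 23.1 and *Gjc1* at 19.8 TPM, and only the last 3 overlapped their neighbors. *Gja1* stood higher in this order than in CPM per kb, for which its length was set by merged exons of 10257 bases that join 8 annotated transcripts.

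**Figure D1:**
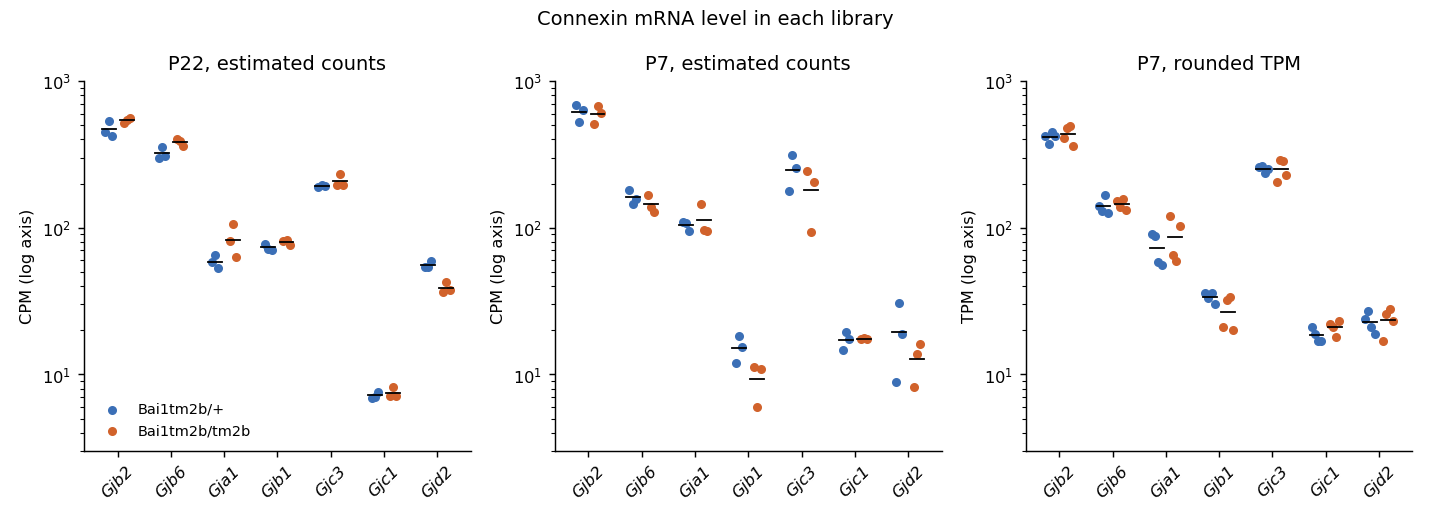
Level of each connexin gene (x axis) in every library of the 3 sets, as CPM or TPM on a log axis. Points are libraries, black lines are group means, and only *Gjd2* at P22 shows the *Bai1*tm2b/tm2b libraries all below the *Bai1*tm2b/+ libraries, while *Gjb1* does so in the P7 counts.

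Genotypes were first compared at P22. *Gjd2* fell in *Bai1*tm2b/tm2b libraries and was the only member called. It was at 53.98, 54.12 and 58.94 CPM in the controls and at 36.37, 42.69 and 37.79 CPM in *Bai1*tm2b/tm2b pools. The groups did not overlap, and the log2 difference was -0.51 (SE 0.077, adjusted p = 0.0041, edgeR quasi-likelihood test over 15443 genes). The call of 1 of 7 members stands beside 3.15% of all genes tested, and beside 1.41% called lower. The study also lists *Gjd2* among its P22 downregulated genes. The size of the difference sits at the limit of 0.5, and the call was lost when *Bai1*tm2b/+ library 3 (-0.465), *Bai1*tm2b/tm2b library 1 (-0.457) or *Bai1*tm2b/tm2b library 3 (-0.49) was left out, while the adjusted p stayed between 0.00421 and 0.0182.

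Markers of neurons moved with *Gjd2*. The summed level of 10 neuron markers was 14800 to 16800 CPM in controls and 10850 to 12370 CPM in *Bai1*tm2b/tm2b pools, and no marker was at 0. Of these markers 1 was called lower, *Nefh* (the heavy neurofilament subunit, log2 difference -0.52, SE 0.085, adjusted p = 0.00505, edgeR), and 6 had an adjusted p under 0.05, all lower. Over all genes 3.15% were called, and 12.3% had an adjusted p under 0.05. *Gjd2* amounted to 3.49, 3.66 and 3.51 counts per 1000 neuron marker counts in the *Bai1*tm2b/+ libraries and to 2.94, 3.93 and 3.34 in the *Bai1*tm2b/tm2b libraries. These ratios overlapped (log2 difference -0.07, exact 2-sided permutation test p = 0.7, smallest possible 0.1), a comparison chosen after the values had been seen. When libraries were scaled to the neuron markers, which moved the median of all genes from 0.01 to 0.45, *Gjd2* was no longer called (-0.06, adjusted p = 0.607, edgeR). In bulk samples, fewer cells of a type and less RNA per cell cannot be told apart.

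**Figure D2:**
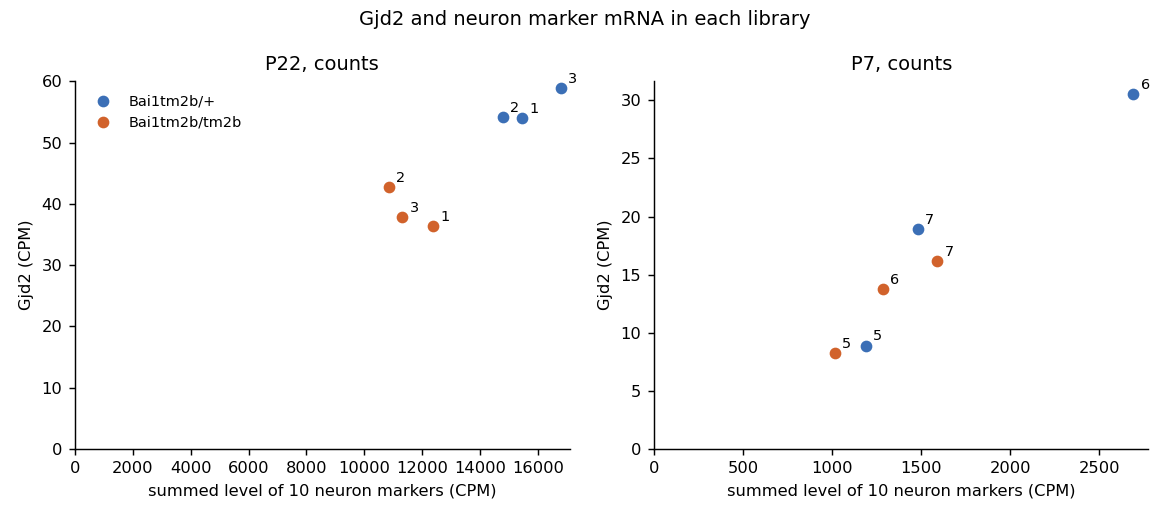
*Gjd2* level (y axis, CPM) against the summed level of 10 neuron markers (x axis, CPM) in each library in counts, with the library number beside each point. At P22 the *Bai1*tm2b/tm2b libraries are lower than the *Bai1*tm2b/+ libraries on both axes, and at P7 *Bai1*tm2b/+ library 6 is highest on both.

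The supporting cell pair was not called at P22, and both genes leaned higher. *Gjb6* was at 297.6, 357 and 309 CPM in *Bai1*tm2b/+ and at 404.2, 389.2 and 360.5 CPM in *Bai1*tm2b/tm2b libraries. The groups did not overlap, with a log2 difference of 0.27 (SE 0.074, adjusted p = 0.0411, edgeR), under the limit of 0.5 on its size. An adjusted p under 0.05 was reached by 12.3% of all genes. Leaving out 1 library gave adjusted p from 0.00855 to 0.172, and only without *Bai1*tm2b/+ library 2 was it under 0.05. *Gjb2* was at 451.7, 537.5 and 421 CPM against 514.1, 544.2 and 562.5 CPM, which overlapped through control library 2 (log2 difference 0.21, SE 0.084, adjusted p = 0.132). Without that library the difference was 0.31 (adjusted p = 0.0139), and over all left-out libraries it ran from 0.135 to 0.313. The ratio of *Gjb2* to *Gjb6* counts was 1.52, 1.51 and 1.36 in *Bai1*tm2b/+ and 1.27, 1.4 and 1.56 in *Bai1*tm2b/tm2b libraries, also with overlap (exact 2-sided permutation test p = 0.7). Supporting cell markers, 12 in number, summed to 5645 to 5985 CPM in *Bai1*tm2b/+ and to 5240 to 5444 CPM in *Bai1*tm2b/tm2b libraries, with none at 0. Yet 5 of these markers were called higher and 1 lower, where 3.15% of all genes were called. Of the 12 markers 10 leaned higher and 2 lower, with a median of 0.35 against 0.01 over all genes. Their part in the values of the pair was not tested.

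*Gja1* showed the widest spread of the P22 members. It was at 58.03, 65.35 and 53.01 CPM in *Bai1*tm2b/+ and at 80.87, 105.3 and 63.24 CPM in *Bai1*tm2b/tm2b libraries. *Bai1*tm2b/tm2b library 3 lay within the control range, and the log2 difference of 0.51 (SE 0.15) missed the threshold with an adjusted p of 0.0509 (edgeR). It passed without *Bai1*tm2b/+ library 2 (0.59, adjusted p = 0.0361), without *Bai1*tm2b/tm2b library 3 (0.67, adjusted p = 0.0106), and with no filter on low counts (adjusted p = 0.0312), and over all left-out libraries its adjusted p ran from 0.0106 to 0.168. Astrocyte markers (6 genes, none at 0) summed to 543.5 to 665.1 CPM in *Bai1*tm2b/+ and to 713.1 to 1064 CPM in *Bai1*tm2b/tm2b libraries, with *Gfap* called higher (0.79, SE 0.16). Their part in the *Gja1* values was not tested.

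The connexins of myelinating glia differed by less. *Gjb1* was at 77.79, 72.13 and 70.2 CPM in *Bai1*tm2b/+ and at 81.44, 83.15 and 76.47 CPM in *Bai1*tm2b/tm2b libraries (log2 difference 0.14, SE 0.064, adjusted p = 0.182). *Gjc3* was at 188.8, 195.8 and 191.8 CPM against 196.8, 233.4 and 196.7 CPM, which did not overlap but differed by only 0.13 on the log2 scale (SE 0.07, adjusted p = 0.262). With *Gjb6* and *Gjd2* it was 1 of 3 members whose groups did not overlap, where 33.7% of all genes did not. The summed myelin and Schwann cell markers (10 genes, none at 0) were at 22350 to 23530 CPM in *Bai1*tm2b/+ and at 23250 to 27180 CPM in *Bai1*tm2b/tm2b libraries. Of these markers 4 leaned higher and 6 lower, with a median of -0.07 and *Mbp* alone called, higher. Of 8 oligodendrocyte markers 7 were called higher (median 0.84), beside 3.15% of all genes called. Their part in the *Gjb1* values was not tested. *Gjb1* per 1000 myelin marker counts was 3.18 ± 0.111 (SD, n = 3) in *Bai1*tm2b/+ and 3.17 ± 0.115 in *Bai1*tm2b/tm2b libraries (exact 2-sided permutation test p = 0.9). *Gjc3* per 1000 myelin marker counts was 8.34 ± 0.285 and 8.23 ± 0.514 (exact 2-sided permutation test p = 0.9, n = 3 each).

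*Gjc1*, the least abundant member, was at 6.97, 7.07 and 7.57 CPM in *Bai1*tm2b/+ and at 7.11, 8.20 and 7.17 CPM in *Bai1*tm2b/tm2b libraries. The log2 difference was 0.06, with a 95% interval of -0.18 to 0.31 by normal approximation, as for all intervals given here. The median over the 7 members was 0.14, against 0.01 over all genes tested.

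At P7 no member was called in either set. In the libraries in counts 0 of 16026 genes (0%) were called by edgeR, 48 by DESeq2, none of them a member, and 763 genes (4.76%) had an unadjusted p under 0.05, of which *Gjb1* was 1. *Gjb1* was at 11.89, 18.36 and 15.3 CPM in *Bai1*tm2b/+ and at 11.16, 6.033 and 10.94 CPM in *Bai1*tm2b/tm2b libraries. It was the 1 member of 7 whose groups did not overlap, as for 10.7% of all genes, with a log2 difference of -0.66 (SE 0.26, adjusted p = 0.894). In the rounded TPM *Gjb1* was at 36, 33, 36 and 30 TPM in the libraries labelled *Bai1*tm2b/+ and at 21, 32, 34 and 20 TPM in those labelled *Bai1*tm2b/tm2b. The groups overlapped in these values, which are not TMM-scaled. The log2 difference, fitted on log2(TMM-scaled TPM + 1), was -0.47 (SE 0.16, adjusted p = 0.0809, limma over 11740 genes). Without TMM scaling it was -0.359 (adjusted p = 0.131, limma). In that set 0 of 7 members were called, beside 0.826% of all genes, and no member's groups were apart, beside 14.8%.

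Myelin markers ran with *Gjb1* at P7. Their sum was 9737 to 16660 CPM in *Bai1*tm2b/+ and 5502 to 11480 CPM in *Bai1*tm2b/tm2b libraries in counts, the lowest being *Bai1*tm2b/tm2b library 6, where *Gjb1* was also lowest. Per 1000 myelin marker counts *Gjb1* was 1.22, 1.1 and 1.14 in *Bai1*tm2b/+ and 0.979, 1.1 and 0.953 in *Bai1*tm2b/tm2b libraries (log2 difference -0.2, exact 2-sided permutation test p = 0.1, the smallest possible). In the rounded TPM the same ratio was 1.71, 1.67, 1.95 and 1.72 against 1.73, 1.35, 1.41 and 1.37 (log2 difference -0.27, exact 2-sided permutation test p = 0.114). Only *Bai1*tm2b/tm2b library 1 lay within the control range. With 1 library left out p ran from 0.0286 to 0.143, and the lowest came from leaving out that overlapping library, which sets the groups apart and so gives the smallest p possible.

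*Gjc3* varied widely between P7 pools in counts. It was at 177.2, 312.2 and 254.9 CPM in *Bai1*tm2b/+ and at 244.4, 93.85 and 203.9 CPM in *Bai1*tm2b/tm2b libraries (log2 difference -0.42, SE 0.36, adjusted p = 0.894). Per 1000 myelin marker counts the libraries drew together, at 18.2, 18.7 and 19 in *Bai1*tm2b/+ and at 21.4, 17.1 and 17.8 in *Bai1*tm2b/tm2b libraries. As rounded TPM *Gjc3* was at 258, 265, 237 and 250 TPM against 206, 289, 283 and 230 TPM.

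*Gjd2* was at 8.886, 30.55 and 18.89 CPM in the P7 controls in counts and at 8.228, 13.73 and 16.16 CPM in *Bai1*tm2b/tm2b pools. The log2 difference was -0.6 with a 95% interval of -1.43 to 0.24 (adjusted p = 0.894). It moved to -0.932 without control library 5, to -0.114 without control library 6 and to -0.378 without *Bai1*tm2b/tm2b library 5. *Bai1*tm2b/+ library 6 was highest for *Gjd2* and for the neuron markers, which summed to 2693 CPM there and to at most 1592 CPM in the other 5 libraries. As rounded TPM *Gjd2* was at 24, 27, 21 and 19 TPM against 17, 26, 28 and 23 TPM. The log2 difference of *Gjd2* was -0.07 (SE 0.14) after TMM scaling and 0.0338 without it. Its level per 1000 neuron marker TPM was 12.2, 10.7, 13.8 and 13.6 against 8.69, 11.1, 11.1 and 7.99 (log2 difference -0.38, exact 2-sided permutation test p = 0.0857). The neuron markers themselves summed to 1395 to 2520 TPM against 1957 to 2878 TPM, with 9 of 9 tested leaning higher in the libraries labelled *Bai1*tm2b/tm2b (median 0.23, none called), unlike in the P7 counts, where 9 of 10 leaned lower.

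The other members showed no called difference at P7. *Gjb2* was at 691.7, 527.5 and 636.4 CPM against 509.1, 672.4 and 603.4 CPM (log2 difference -0.04, 95% interval -0.3 to 0.23). *Gjb6* was at 180, 145.4 and 157 CPM against 167.6, 139.1 and 127.9 CPM (-0.12, 95% interval -0.39 to 0.14). Scaling to the neuron markers moved the median of all genes to 0.32 and the pair to 0.219 and 0.185, both below that median. *Gja1* was at 110, 108.2 and 94.68 CPM against 145.8, 96.18 and 94.31 CPM (0.14, SE 0.19), with *Bai1*tm2b/tm2b library 5 apart from the other 5. *Gjc1* was at 14.74, 19.33 and 17.57 CPM against 17.57, 17.72 and 17.42 CPM (0.05, SE 0.11). For the rounded TPM the log2 differences after TMM scaling were -0.05 for *Gjb2*, -0.06 for *Gjb6*, 0.11 for *Gja1* and 0.07 for *Gjc1*. In this order, unscaled levels over the 8 libraries were 361 to 494, 126 to 168, 56 to 121 and 17 to 23 TPM. Without TMM scaling the differences were 0.0577, 0.0454, 0.217 and 0.174.

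**Figure D3:**
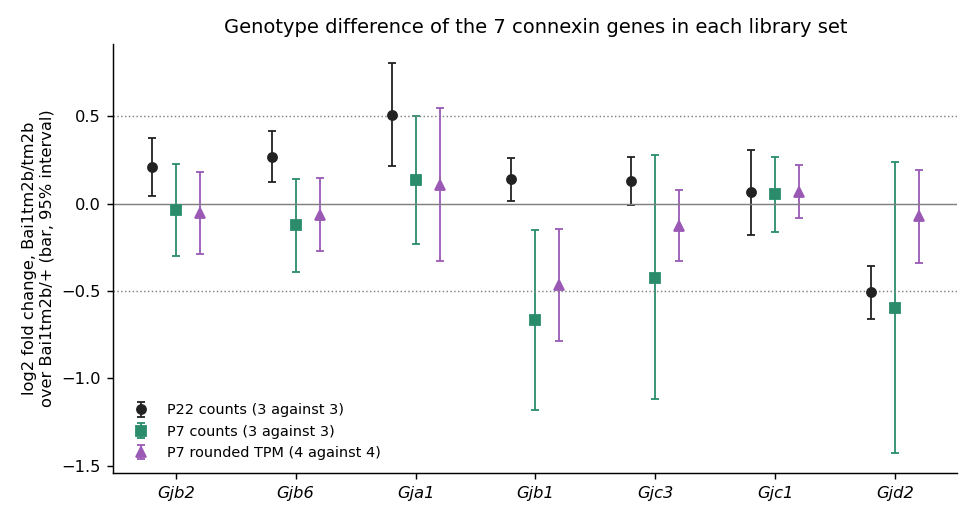
Log2 difference of *Bai1*tm2b/tm2b over *Bai1*tm2b/+ libraries (y axis) for each connexin gene in the 3 sets. Bars are 95% intervals by normal approximation, and dotted lines are at 0.5 and -0.5. *Gjd2* at P22 (-0.51) was the 1 called member, and *Gjb1* was at -0.66 and -0.47 in the P7 sets against 0.14 at P22.

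The genotype difference was then compared between the P22 and P7 libraries in counts through an interaction term over 16314 genes, of which 5 (0.0306%) were called. None of the members was among them. *Gjb1* had the lowest unadjusted p of the members, 0.00975, with an interaction of 0.82 on the log2 scale (SE 0.27, adjusted p = 0.329, edgeR). *Gjb6* followed with 0.41 (SE 0.16, adjusted p = 0.4). The interaction of *Gjd2* was 0.11 with a 95% interval of -0.81 to 1.02, so its genotype difference at P22 was not shown to differ from that at P7.

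Levels in the P22 libraries were compared with those in the P7 libraries in counts, over both genotypes with genotype as a term. Age, deposited table and batch coincide in this comparison and cannot be told apart. The study gives separate batches for P7 and P22, which the labels do not name. Of the 7 members 5 were called, 3 higher and 2 lower, beside 54.4% of all genes, with 25.9% higher and 28.6% lower, so the members' share was near that of all genes. The libraries of 4 members did not overlap, beside 62.6% of all genes.

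*Gjb1* rose most. It was at 70.2 to 83.15 CPM in the P22 libraries and at 6.033 to 18.36 CPM in the P7 libraries, a log2 difference of 2.67 (SE 0.18, adjusted p = 8.14e-09, edgeR). The myelin markers also rose, 9 of 10 called, but *Gjb1* rose beyond their sum. Per 1000 myelin marker counts it was 3.18 ± 0.101 (SD, n = 6) in P22 and 1.08 ± 0.101 in P7 libraries (log2 difference 1.56, exact 2-sided permutation test p = 0.00216, the smallest possible). *Gjc3*, the other Schwann cell connexin, did not rise, at 188.8 to 233.4 CPM in P22 and 93.85 to 312.2 CPM in P7 libraries (-0.08, SE 0.2, adjusted p = 0.726). Its sign turned in the *Bai1*tm2b/tm2b libraries alone (0.185). Per 1000 myelin marker counts *Gjc3* was 8.28 ± 0.376 in P22 and 18.7 ± 1.51 in P7 libraries (log2 difference -1.17, exact 2-sided permutation test p = 0.00216, n = 6 each). The 2 ratios moved in opposite directions while, within a set, the 2 genes ran together over the libraries (Pearson r = 0.933 over 12 libraries after the mean of each set was subtracted, a description over libraries that share their myelin marker content).

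**Figure D4:**
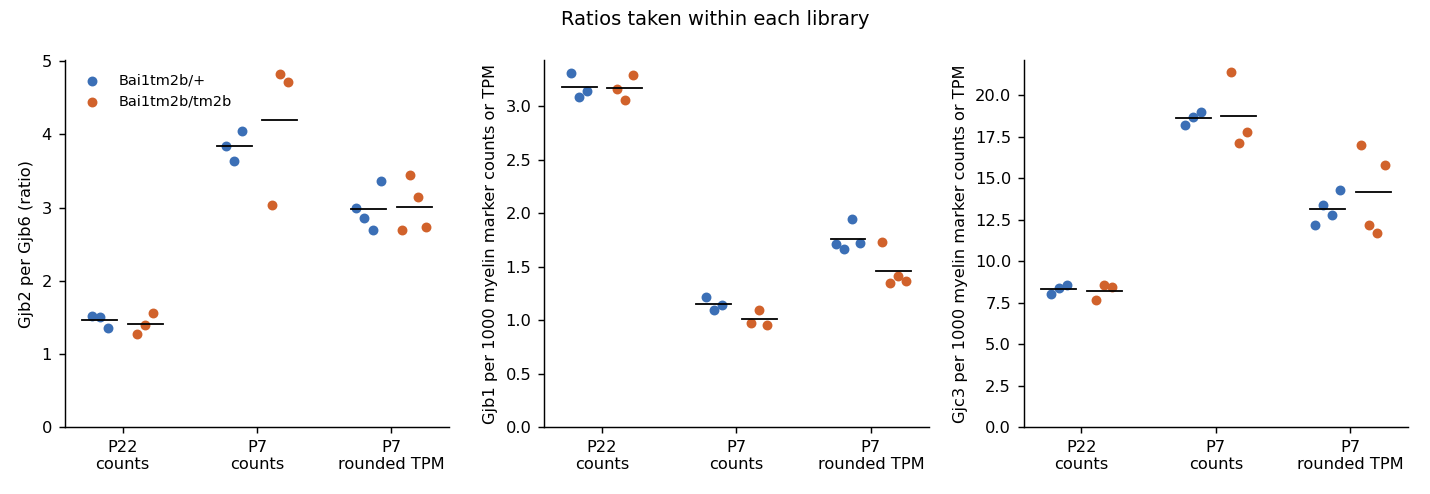
*Gjb2* per *Gjb6*, *Gjb1* per 1000 myelin marker counts or TPM and *Gjc3* per 1000 myelin marker counts or TPM (y axes) in each library of the 3 sets, with black lines at group means. *Gjb2* per *Gjb6* (1.44 against 4.02) and *Gjc3* per marker (8.28 against 18.7) were lower in P22 than in P7 libraries in counts and *Gjb1* per marker was higher (3.18 against 1.08), and levels per marker in TPM weigh gene length and are not set against the counts.

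The cochlear pair parted. *Gjb6* rose from 127.9 to 180 CPM in the P7 libraries to 297.6 to 404.2 CPM in the P22 libraries (log2 difference 1.2, SE 0.098, adjusted p = 5.42e-08). *Gjb2* was at 509.1 to 691.7 CPM in P7 and at 421 to 562.5 CPM in P22 libraries, which overlapped (-0.27, SE 0.096, adjusted p = 0.0201, under the limit on size). There were 1.44 ± 0.11 (SD, n = 6) *Gjb2* counts for each *Gjb6* count in P22 libraries and 4.02 ± 0.679 in P7 libraries, with ranges of 1.27 to 1.56 and 3.04 to 4.83. This ratio differed by -1.47 on the log2 scale (exact 2-sided permutation test p = 0.00216, the smallest possible) and stayed between -1.55 and -1.41 with any 1 library left out. Supporting cell markers were called lower for 9 of 12 genes and higher for 3, with a median of -1.74 against -0.05 over all genes, and fibrocyte and mesenchyme markers (8 genes, none at 0) summed to 7814 to 10200 CPM in P22 and to 2639 to 3431 CPM in P7 libraries. The sum and the list went apart, since 5 of these 8 genes were called lower and 2 higher, with a median of -1.11. The part of either group of markers in the pair's values was not tested.

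*Gjd2* was at 36.37 to 58.94 CPM in P22 and at 8.228 to 30.55 CPM in P7 libraries, with no overlap (log2 difference 1.56, SE 0.23, adjusted p = 2.42e-05). Neuron markers rose more, 9 of 10 called higher with a median of 2.59 over the list. *Gjd2* per 1000 neuron marker counts was therefore lower in P22, at 3.48 ± 0.332 (SD, n = 6), than in P7 libraries, at 10.1 ± 1.99 (log2 difference -1.52, exact 2-sided permutation test p = 0.00216).

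*Gjc1* and *Gja1* fell. *Gjc1* was at 6.97 to 8.20 CPM in P22 and at 14.74 to 19.33 CPM in P7 libraries, with no overlap (log2 difference -1.24, SE 0.076, adjusted p = 2.83e-09). *Gja1* was at 53.01 to 105.3 CPM against 94.31 to 145.8 CPM, which overlapped through *Bai1*tm2b/tm2b library 2 of P22 (-0.63, SE 0.14, adjusted p = 0.000909). In the *Bai1*tm2b/tm2b libraries alone the difference of *Gja1* was -0.455 and was not called.

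**Figure D5:**
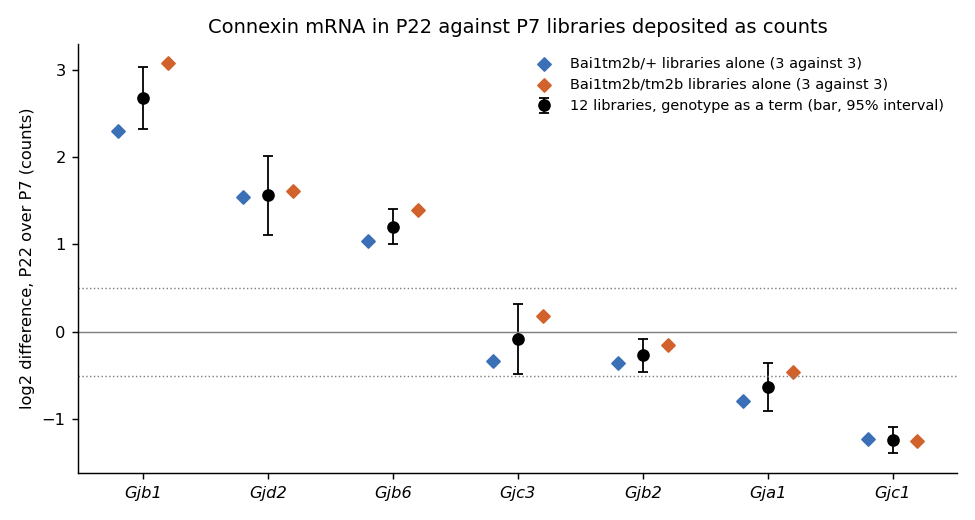
Log2 difference of P22 over P7 libraries in counts (y axis) for each connexin gene. Bars are 95% intervals over the 12 libraries by normal approximation, diamonds are each genotype alone, and dotted lines are at 0.5 and -0.5. *Gjb1*, *Gjd2* and *Gjb6* lie above the upper line in both genotypes and *Gjc1* below the lower line, while *Gjc3* changes sign between genotypes.

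Few other connexins were measured. Of 13 further connexin genes 3 passed the filter at P22, 4 in the P7 counts and 2 in the rounded TPM.

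Pannexins form channels of like shape that do not join cells. *Panx2*, the pannexin of neurons, was at 338.4, 313.9 and 358.6 CPM in *Bai1*tm2b/+ and at 256.2, 218.6 and 251.8 CPM in *Bai1*tm2b/tm2b libraries at P22, lower with no overlap but under the limit on size (-0.47, SE 0.075, adjusted p = 0.00484). The study, which used DESeq2, lists *Panx2* among its P22 downregulated genes, and DESeq2 gave -0.472 here. *Panx2* was called when *Bai1*tm2b/+ library 2, *Bai1*tm2b/tm2b library 1 or *Bai1*tm2b/tm2b library 3 was left out (differences of -0.521 to -0.395 over all left-out libraries). The neuron marker sums given above were lower in the same libraries. In the P22 against the P7 libraries *Panx2* was higher by 4.29 on the log2 scale (SE 0.15) and *Panx1*, a widely expressed ATP release channel, by 1.15 (SE 0.1). *Panx3*, of bone and cartilage cells, fell by 5.29 (SE 0.45), with 7 to 67 counts in P22 and 491 to 2408 in P7 libraries. Bone markers (6 genes, none at 0) summed to 189 to 478.1 CPM in P22 and to 860.9 to 2095 CPM in P7 libraries. The *Panx3* call was lost without P22 *Bai1*tm2b/+ library 2, *Bai1*tm2b/tm2b library 1 or *Bai1*tm2b/tm2b library 2. Its difference stayed between -5.8 and -4.96 with any 1 library left out (adjusted p at most 8.45e-07, edgeR), so only the limit on the standard error was missed.

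Genes that work with connexins were also read by list. Among 10 genes that bind or traffic connexins, none was called at P22 or P7. An adjusted p under 0.05 at P22 was reached by 3 of them, all lower (*Cdh2*, *Cnst* and *Ubqln4*, -0.257 to -0.223), beside 12.3% of all genes. In the rounded TPM 3 also had an adjusted p under 0.05, all higher in the libraries labelled *Bai1*tm2b/tm2b (*Cnst*, *Nedd4* and *Src*, 0.217 to 0.31), and 9 of 10 leaned higher, where 8.02% of all genes had such a p. In the P22 against the P7 libraries 3 of the 10 were called higher (*Cdh2*, *Dbn1* and *Ubqln4*) and 2 lower, near the 54.4% of all genes called. The 2 lower were *Tjp1*, the scaffold ZO-1 of gap junction plaques (-0.565, SE 0.079), and *Nedd4*, a ubiquitin ligase that acts on connexin 43 (-1.02, SE 0.066).

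Among 20 genes of ATP signaling, the response to hemichannel release, 1 of 18 tested was called at P22, beside 3.15% of all genes. This was *P2rx5*, an ATP-gated channel subunit, which was lower (-0.77, SE 0.22, adjusted p = 0.047), and none was called at P7. In the P22 against the P7 libraries 5 were called higher and 8 lower of 19, beside the 54.4% of all genes called. *Ano1*, the calcium-gated chloride channel that ATP opens in immature supporting cells, fell by 5.77 on the log2 scale (SE 0.11, adjusted p = 6.98e-13). *P2rx3*, an ATP-gated channel subunit of sensory neurons, fell by 3.24 (SE 0.27), *Entpd2*, an ectonucleotidase, by 2.01 (SE 0.12), and *P2rx6* was higher by 3.65 (SE 0.095).

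Among 13 genes of potassium circulation none of the tested was called between genotypes, and the median difference at P22 was -0.22 over 12 genes, against 0.01 over all genes. In the P22 against the P7 libraries 5 were called higher and none lower of 13, where 54.4% of all genes were called and 25.9% called higher. They included *Slc26a4*, the anion exchanger pendrin (2.5, SE 0.14), *Atp1b1*, a sodium pump subunit (1.93, SE 0.12) and *Slc12a7*, a potassium-chloride cotransporter of supporting cells (1.45, SE 0.058).

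The genes most like 4 of the members were sought over the 12 libraries in counts, after the mean of each set was subtracted, among 11655 genes with a mean of at least 5 CPM in both sets. The correlations describe libraries that share cell content, and no test was made. *Gjd2* ran closest to *Dlgap1* (r = 0.972), which encodes a scaffold of the postsynaptic density, to *Ina* (0.971), the neuronal intermediate filament internexin, and to *Peg13* (0.971), *Rnf157* (0.97) and *Mlycd* (0.967). *Gjc3* ran closest to *Cyp2j9* (0.983), *Gatm* (0.98), *Cdh19* (0.979), a cadherin of Schwann cells, *Il16* (0.973) and *Arhgap19* (0.967). *Gjb2* ran closest to *Ppap2c* (0.966), *Tmem51* (0.959), *Cdo1* (0.957), *Actn4* (0.954) and *Padi2* (0.943). For *Gjb6* the highest were lower, from *Asgr1* (0.921) and *Itgbl1* (0.896) to *Cnep1r1* (0.894), *Vtn* (0.89) and *Lbp* (0.886). The correlation of *Gjb2* with *Gjb6* was 0.401, under that of *Gjb6* with *Gja1* at 0.707.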

How the data were processed

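RNA-seq libraries were made from the sensory epithelium and spiral ganglion of the apical cochlear coil of *Bai1*tm2b/+ controls and *Bai1*tm2b/tm2b littermates, and groups were taken from the sample labels. Per the labels and methods, the authors aligned paired-end reads to mm10 with an nf-core pipeline, in which Salmon gave the estimated counts deposited for the 6 P22 libraries and for P7 libraries 5 to 7. STAR, Salmon and DESeq2 are named in the submitters' processing notes, with versions not given in the sources used here. The values deposited for P7 libraries 1 to 4 are whole numbers that sum to 999644 to 999777 in each library and were read as a score, TPM rounded by the authors. This reading rests on the values, and the labels do not state it.

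Estimated counts were rounded to whole numbers, filtered with filterByExpr, scaled by TMM and compared in R 4.3.3 in edgeR 4.0.16 (quasi-likelihood test), and p-values were adjusted by Benjamini-Hochberg over all genes of a fit. Rounded TPM were compared by limma 3.58.1 (with trend) on log2(TMM-scaled TPM + 1) where a gene's mean was 5 TPM or more, a scale that understates the change of low genes. A call needed an adjusted p under 0.05, a log2 difference above 0.5 in size and a standard error under 0.5. Ratios within a library were compared by exact permutation tests over libraries and were chosen after the values had been seen. The steps were tested on simulated data in which 200 genes were changed by 1 on the log2 scale. In the count fits these were drawn from genes with a mean above 5 CPM. Of the changed genes 99% were called in the P22 fit, 92% in the P7 counts, 96.5% in the rounded TPM, 100% between the count sets and 80.5% in the interaction. Differences near or under the limit of 0.5 were not simulated, so these rates do not apply to them. Of the genes, 95.7% were matched to GENCODE models of GRCm38 for exon lengths, and RefSeq promoter windows were found for 6 of the 7 members, in a single form for 5. Intervals cover the spread between pools, and the number of pools limits the precision.

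The members, marker lists and gene lists were chosen with earlier results of these data known. All 7 members were named in each comparison, and the named genes of the other lists were those called with the largest differences (at most 4 per list). For genes that bind or traffic connexins, they were those called or those under the adjusted p alone. Some results that met these rules are not reported here. Alternatives covered the tool (DESeq2 1.42.0), the scaling, the filter, the limits of a call, the pseudocount, the replicate block and each library left out.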

Additional observations from a re-analysis of the deposited data

Results flagged for a closer look

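Of 28 groups of 4 P7 rounded TPM libraries examined for a library far from the others, 1 stood out, where chance alone gives about 1 in 20. *Gjb1* per 1000 myelin marker TPM was 1.73 in the library labelled *Bai1*tm2b/tm2b 1, while the other libraries of that label were at 1.35, 1.41 and 1.37. The cause was not tested.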

How the results depend on the processing

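The number of connexin genes called between genotypes at P22 (1) rose to 2 with no filter on low counts (*Gja1* added), to 2 with no limit on size or standard error (*Gjb6* added) and to 6, all higher and without *Gjd2*, when libraries were scaled to neuron markers. It ran from 0 to 2 with 1 library left out. In the P7 sets 0 members were called in every setting run, and the 5 members called between the count sets varied by no more than 1.5 times. Over all genes, the 487 calls at P22 became 5433 (5405 higher, 28 lower) with neuron scaling, 1904 with no limit on size or standard error and 270 to 588 with 1 library left out, where the split of the main calls was 269 higher and 218 lower. The P7 counts gave 48 calls with DESeq2 and 11 with neuron scaling, which moved the median of all genes to 0.32. The 97 calls in the rounded TPM became 0 with no minimum TPM, 0 with a length trend removed, 0 with the replicate block, 293 with no TMM scaling, 942 with no limit on size or standard error and 0 to 336 with 1 library left out. Between the count sets 8882 calls became 4890 with a limit of 1 on size. The 5 calls of the interaction became 119 with DESeq2, 8 with no filter and 0 to 101 with 1 library left out. The causes of these shifts were not tested.

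Signs turned mostly where a difference was small and not called. With neuron scaling, the log2 difference became 0.174 for *Panx1* at P22, and in the P7 counts 0.219 for *Gjb2*, 0.185 for *Gjb6*, 0.017 for *Gjc3*, 0.148 for *Panx1*, 0.32 for *Panx2* and 0.507 for *Panx3*. In the rounded TPM, no TMM scaling (median of all genes 0.12) gave 0.0577 for *Gjb2*, 0.0454 for *Gjb6*, 0.0338 for *Gjd2* and 0.0272 for *Panx3*. Removal of the length trend gave 0.0307 for *Gjb2*, -0.0298 for *Gja1*, -0.0115 for *Panx1* and -0.072 for *Adgrb1*. *Gjc3* between the count sets was 0.185 in *Bai1*tm2b/tm2b libraries alone, and the interaction of *Gjc1* was -0.00264 with DESeq2 and -0.00566 with RLE scaling.

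With 1 library left out, signs turned within these ranges. In the P7 counts they were -0.127 to 0.255 for *Gja1*, -0.142 to 0.0659 for *Gjb2*, -0.0336 to 0.141 for *Gjc1*, -0.282 to 0.196 for *Panx2* and -0.738 to 0.324 for *Panx3*. In the rounded TPM they were -0.0692 to 0.116 for *Adgrb1*, -0.0854 to 0.263 for *Gja1*, -0.132 to 0.0498 for *Gjb2*, -0.126 to 0.0312 for *Gjb6* and -0.168 to 0.0548 for *Gjd2*. *Gjc3* between the count sets ran from -0.25 to 0.04. Interactions ran from -0.242 to 0.201 for *Adgrb1*, -0.0622 to 0.129 for *Gjc1*, -0.383 to 0.448 for *Gjd2* and -0.175 to 0.0999 for *Panx1*. Among genotype ratios, *Gjb2* per *Gjb6* ran from -0.131 to 0.0165 at P22, -0.0192 to 0.316 in the P7 counts and -0.057 to 0.0717 in the rounded TPM. *Gjb1* per myelin marker ran from -0.032 to 0.0231 at P22. *Gjc3* per myelin marker ran from -0.0519 to 0.0323 at P22, -0.0989 to 0.0662 in the P7 counts and -0.00577 to 0.173 in the rounded TPM. *Gjd2* per neuron marker ran from -0.181 to 0.0292 at P22 and from -0.329 to 0.0578 in the P7 counts.

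Libraries with the same number did not deviate together. The correlation of their deviations was -0.00191 to 0.0604 at P22, -0.0535 to 0.0685 in the P7 counts and -0.231 to -0.012 in the rounded TPM, and 2 of 3, 1 of 3 and 0 of 4 libraries of a genotype correlated best with their own number. With the replicate block *Gjd2* at P22 was -0.51 (adjusted p = 0.00789, edgeR) and remained called and *Gja1* was 0.483 (adjusted p = 0.0119) and was not.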
